A study of Mus musculus with 48 samples.

Results

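The cell-free fluid of lung lavages was compared between allergic and untreated C57BL/6 mice in 6 small RNA libraries, 3 allergic and 3 untreated, out of the 48 libraries of the series. The 6 were taken by their labels, are all of library set 2, and no other library entered the comparison. Allergic mice had weekly intraperitoneal injections of 50 ug ovalbumin with Imject alum for 3 to 4 weeks, and from 7 days after the last one they aspirated 50 ug ovalbumin in 20 ul of PBS through the oropharynx daily on 3 days, with collection on day 4 after the first challenge. Untreated mice had none of these, so that injection, alum and challenge differ together between the groups. Each lavage used 1 ml of cold PBS and was spun at 500 g for 5 minutes, which leaves small vesicles, protein-bound RNA and any unspun cells in the fluid. The label of untreated library 1 alone gives a lysed volume, 500 ul. Age, sex and the number of mice behind a library are not given, and the p-values below can speak only of the spread among these libraries, part of which may be technical.

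A miRNA is a short RNA that pairs with messenger RNAs mainly through its seed, bases 2 to 8, and represses them, so miRNAs with one seed are held to share many targets. Both strands of a hairpin can become miRNAs, named 5p and 3p. Cells shed miRNAs in vesicles and protein complexes and release them when they are damaged, and since several miRNAs are made mainly by one cell lineage, those of a body fluid are read as a trace of the cells around it. Ovalbumin given into the airway of an immunized mouse is a standard model of allergic airway inflammation, in which eosinophils, lymphocytes and other leukocytes enter the airway space.

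Library totals were 179354 to 206743 miRNA counts in allergic fluid and 225183 to 388924 in untreated fluid. Levels are given as counts per 1000000 (CPM) with edgeR's TMM scaling. A level is a share of the miRNA reads in its library, not an amount of RNA in the lavage, and a change in how many cells of a type shed RNA cannot be told apart from a change in how much each sheds. The set 2 counts hold 1211 miRNA entries, of which 782 had a count in the 6 libraries, and 247 passed the filter on low counts and were tested. The first principal component held 74.8% of the variance and separated the groups. On it untreated library 1 (5.38) lay nearer to the allergic libraries (-10.5 to -7.94) than untreated libraries 3 (9.78) and 2 (13.4).

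Mature sequences (RefSeq, GRCm38.p6, 5′ to 3′) are shown first for the seed that changed in both directions, with bases 2 to 8 in capitals. The first 3 rose and the next 3 fell, and miR-503-5p, which fell as well, has a seed that starts alike.

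miR-15b-5p: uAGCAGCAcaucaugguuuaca
miR-15a-5p: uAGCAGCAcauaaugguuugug
miR-16-5p: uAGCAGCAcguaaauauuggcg
miR-322-5p: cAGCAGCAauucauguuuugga
miR-195a-5p: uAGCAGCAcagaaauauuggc
miR-497a-5p: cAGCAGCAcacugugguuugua
miR-503-5p: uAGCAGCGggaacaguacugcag

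The leukocyte and activation miRNAs that rose include the following, with miR-146b-5p shown because it has the seed of miR-146a-5p and was not called.

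miR-223-3p: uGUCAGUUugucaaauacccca
miR-142a-3p: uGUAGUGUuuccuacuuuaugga
miR-142a-5p: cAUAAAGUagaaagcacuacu
miR-155-5p: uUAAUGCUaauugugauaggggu
miR-146a-5p: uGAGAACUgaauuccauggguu
miR-146b-5p: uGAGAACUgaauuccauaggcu
miR-21a-5p: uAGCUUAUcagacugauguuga

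The next sets each share a seed within the set and were chosen because their members were not all called: the miR-34 and miR-449 seed of airway cells with cilia, the seed of miR-25 and miR-92a, that of miR-130b, and that of miR-351-5p, which fell while miR-125a-5p and miR-125b-5p were not called.

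miR-449c-5p: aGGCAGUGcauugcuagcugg
miR-449a-5p: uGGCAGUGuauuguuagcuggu
miR-34b-5p: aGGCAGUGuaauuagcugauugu
miR-34a-5p: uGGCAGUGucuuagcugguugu
miR-25-3p: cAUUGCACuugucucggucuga
miR-92a-3p: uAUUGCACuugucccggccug
miR-92b-3p: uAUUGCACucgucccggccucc
miR-32-5p: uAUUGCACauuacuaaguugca
miR-130b-3p: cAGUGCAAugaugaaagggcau
miR-130a-3p: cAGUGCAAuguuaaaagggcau
miR-351-5p: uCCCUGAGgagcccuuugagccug
miR-125a-5p: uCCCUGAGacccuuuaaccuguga
miR-125b-5p: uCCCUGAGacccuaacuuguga

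Allergic fluid held more of 4 of 7 tested leukocyte miRNAs, 5 of 9 activation miRNAs and 1 hairpin cluster of multiciliated epithelial cells. It held less of a cluster on the X chromosome. Both strands of the endothelial miR-126a were lower as well, with calls that were lost without allergic library 1 or 2. By edgeR's quasi-likelihood test at a Benjamini-Hochberg adjusted p under 0.05, 73 of the 247 tested entries differed (29.6%), 41 of them higher (16.6%) and 32 lower (13%) in allergic fluid. The median log2 fold change of all tested entries was -0.01. In the 41 that rose every allergic library lay above every untreated library, as in 70 of the 247 tested (28.3%). Of the 32 that fell, 31 had every allergic library below every untreated one, as 53 of the 247 did (21.5%), and miR-122-5p overlapped. Scaling by total counts moved the median of all tested entries to -0.26 and the calls to 33 higher and 60 lower. Without allergic library 1 there were 41 calls and without allergic library 2 there were 43, each with groups of 2 and 3 libraries.

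The libraries were not evenly spread within the groups. Of the 32 miRNAs that fell, 28 were highest in untreated library 2 and 29 lowest in untreated library 1 among the untreated libraries. Over all 247 tested, 116 were highest in untreated library 2 and 105 lowest in untreated library 1. Of the 41 that rose, 30 were lowest in allergic library 3 among the allergic libraries, against 94 of all 247. Without untreated library 1 there were 101 calls, 71 of them among the 73. The part of these libraries in the results below was not tested beyond leaving each out in turn, and a call that was lost in this way is given beside its miRNA.

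**Figure D1:**
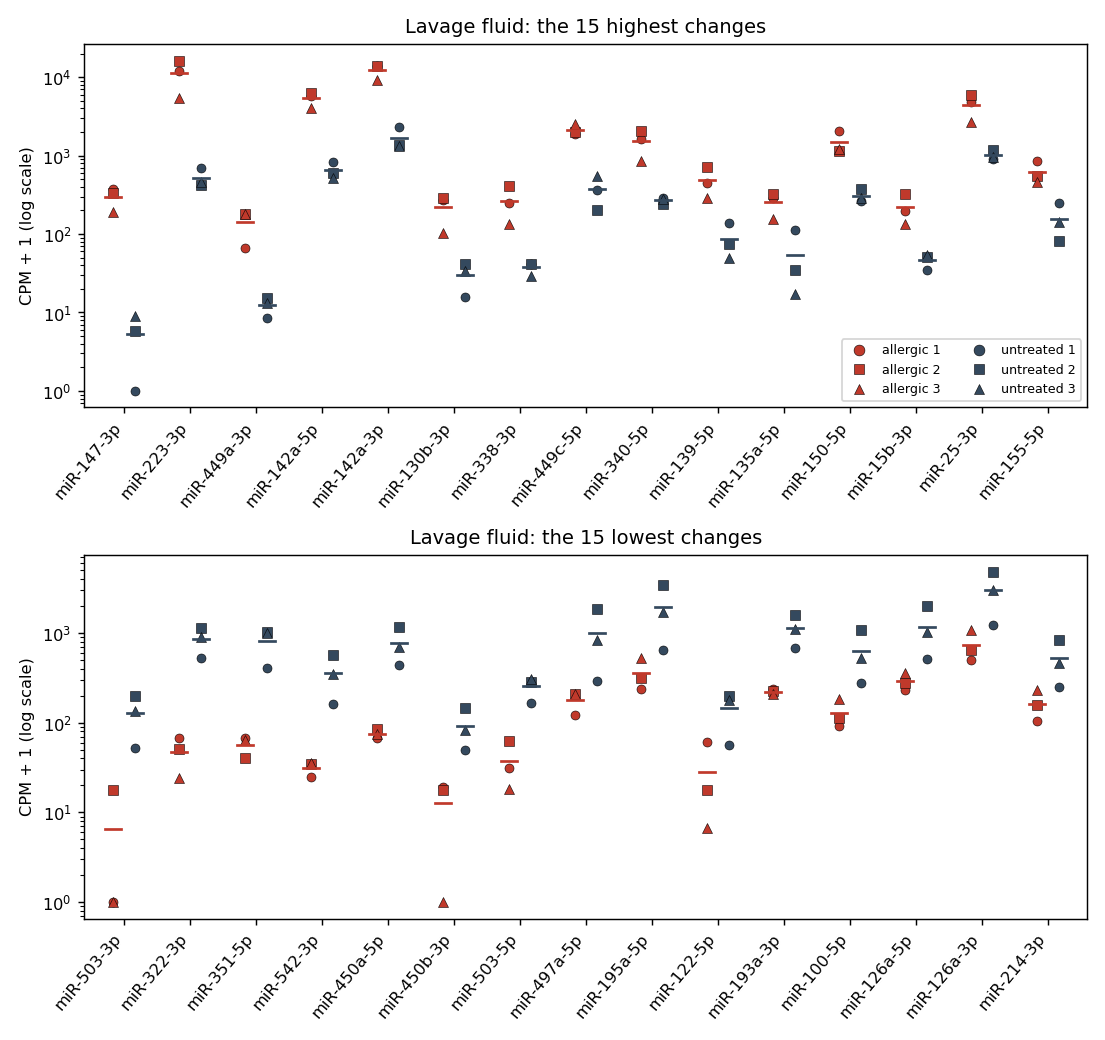
Level in each lavage fluid library (CPM + 1, log axis) of the 15 miRNAs with the highest and the 15 with the lowest log2 fold change among those called with a mean of at least 50 CPM. Red symbols are allergic and dark symbols untreated libraries, and bars are group means; the groups overlap for miR-122-5p alone, where untreated library 1 at 55.6 CPM lies below allergic library 1 at 60.2 CPM.

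Leukocyte miRNAs had the highest median change of the lists. Of 7 tested members 4 rose and 0 fell, with a median log2 fold change of 2.26 against -0.01 over all entries tested. The counts of this list and those below stand against 16.6% higher and 13% lower over all entries tested. miR-223-3p, which is made mainly by neutrophils, eosinophils and other myeloid cells, was at 11911, 16320 and 5462 CPM in allergic fluid, against 689, 416 and 458 CPM in untreated fluid. The lowest allergic library stood well above the highest untreated one. This is a 21.6-fold difference (log2 4.43, SE 0.45, edgeR adjusted p = 0.000634), and it was called when any library was left out. The hairpin lies on X at chrX:96242817-96242926 of mm10, over an exon of the antisense transcript F630028O10Rik. Its other strand, miR-223-5p, was too rare to be tested, with 13, 18 and 8 counts in allergic fluid and 0 in all 3 untreated libraries. Set against 3 counts over the untreated group, the limit that a count of 0 allows, its share of the group's total counts was at least 19.7-fold higher, without TMM scaling.

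miR-142a, which is found across blood cells of all lineages, rose in both strands. miR-142a-3p was at 13993, 13859 and 9116 CPM in allergic fluid, against 2323, 1379.8 and 1317 CPM in untreated fluid (log2 2.88, SE 0.30, edgeR adjusted p = 0.000634). miR-142a-5p was at 5733, 6347 and 4010.2 CPM in allergic fluid, against 823, 604 and 519 CPM in untreated fluid (log2 3.05, SE 0.28, edgeR adjusted p = 0.000634). The strands moved alike, by 7.37-fold and 8.27-fold, and the hairpin is in an intron of Mir142hg (chr11:87756864-87756927). miR-150-5p, a miRNA of mature B and T lymphocytes, was at 2045, 1153 and 1228 CPM in allergic fluid, against 263, 374 and 284 CPM in untreated fluid (log2 2.26, SE 0.28, edgeR adjusted p = 0.00112). Its allergic libraries were all at least 3 times the untreated ones. The other 3 tested members were not called: miR-342-3p had a log2 fold change of -0.02, miR-181b-5p of -0.41 and miR-181a-5p of -0.84. miR-181a-5p, high in developing lymphocytes but also in other tissues, was called lower with DESeq2 (adjusted p = 0.033), with total count scaling (0.0295) and without untreated library 1 (0.00444).

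Summed over its 10 entries with counts, the leukocyte list took 3.44%, 3.52% and 2.15% of the counts in allergic fluid, against 0.766%, 0.955% and 0.811% in untreated fluid. Macrophage-linked miRNAs from introns of Mrc1 and Htr2c, such as miR-511 and miR-1264, were too rare to be tested. miR-1298-5p, the most frequent of them, had 19, 5 and 6 counts in allergic fluid, against 36, 18 and 6 in untreated fluid. Their 10 entries took 0.00868% to 0.0206% of the counts in allergic fluid and 0.00355% to 0.0322% in untreated fluid, and 0 of them passed the filter on low counts. The group ranges of that share overlap.

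**Figure D2:**
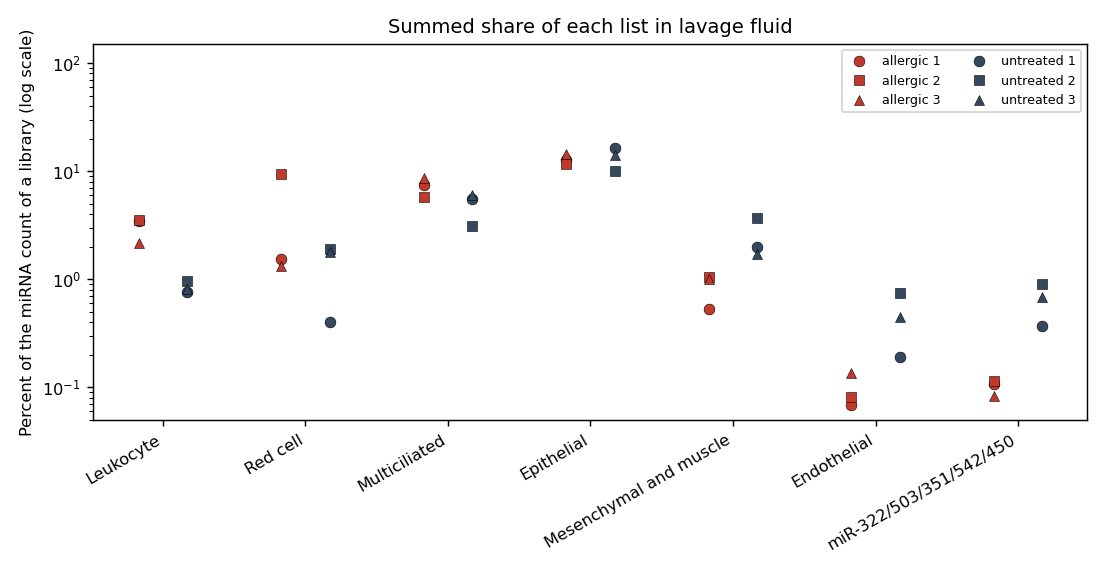
Summed share of the counts of a library (percent, log axis) taken by 7 lists in each lavage fluid library, allergic in red and untreated in dark symbols. The leukocyte shares of the groups are apart (2.15% to 3.52% against 0.766% to 0.955%), the red cell share is high in allergic library 2 (9.39%), and the epithelial shares overlap.

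Activation-induced miRNAs are switched on by inflammatory signals in macrophages and lymphocytes. Of 9 tested 5 rose and 0 fell, with a median log2 fold change of 1.11. miR-147-3p, known from macrophages stimulated through Toll-like receptors, had the highest fold change of the 247 tested. It was at 379, 329 and 189 CPM in allergic fluid (63, 59 and 33 counts), against 0, 4.76 and 8.1 CPM in untreated fluid (0, 2 and 2 counts). The untreated libraries were at or under the worth of 3 counts (7.71 to 13.3 CPM), so the 62.6-fold change (log2 5.97, SE 0.58, edgeR adjusted p = 0.000634) rests on few untreated reads.

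miR-155-5p, a miRNA of activated lymphocytes and myeloid cells from the Mir155hg transcript (chr16:84714140-84714204), was at 848, 546 and 453 CPM in allergic fluid, against 245, 80.9 and 142 CPM in untreated fluid (log2 1.99, SE 0.43, edgeR adjusted p = 0.0114). Its groups did not overlap, and the call was lost without allergic library 1 (adjusted p = 0.0581). miR-146a-5p, which damps inflammatory signalling and lies between genes on chromosome 11, was at 2262, 1754 and 1538 CPM in allergic fluid, against 526, 488 and 409 CPM in untreated fluid (log2 1.96, SE 0.22, edgeR adjusted p = 0.000744). miR-146b-5p, with the same seed and a nearly identical sequence, stayed at 674 to 818 CPM in allergic fluid, against 673 to 966 CPM in untreated fluid, a log2 fold change of -0.02. So within this seed the level of 1 member differed between the groups and that of the other overlapped.

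miR-21a-5p, the most abundant miRNA in all 6 libraries, took 19.6%, 16.6% and 18.2% of the counts in allergic fluid, against 10.9%, 7.88% and 11.1% in untreated fluid. It is made in many cell types and rises in inflamed tissue, and its hairpin lies over an exon of Vmp1 (chr11:86584067-86584158). The level of miR-21a-5p rose 2.16-fold (log2 1.11, SE 0.16, edgeR adjusted p = 0.00179), or log2 0.86 under total count scaling. Its rarer strand miR-21a-3p was at 511, 640.3 and 648 CPM in allergic fluid, against 193, 131 and 154 CPM in untreated fluid (log2 1.92, SE 0.24, edgeR adjusted p = 0.00112). Both strands were apart between the groups. The activation-linked miR-221-3p (log2 0.80), miR-132-3p (log2 0.70) and miR-222-3p (log2 0.03) were not called, and miR-221-3p was called without allergic library 3 or without untreated library 2.

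Epithelial miRNAs as a list stayed close to the median of all tested entries. Of 15 tested members 0 rose and 1 fell, and the median log2 fold change was 0.12. The miR-200 family, which maintains the epithelial state, was among the most abundant groups of the fluid. miR-200a-3p was at 33538 to 37234 CPM in allergic fluid, against 25090.3 to 40726 CPM in untreated fluid, and miR-200c-3p was at 12650.4 to 14905 CPM against 10127 to 13870.5 CPM. Both ranges overlap, with log2 fold changes of 0.07 and 0.17. miR-205-5p of basal cells (log2 0.56), miR-375-3p of secretory and neuroendocrine cells (log2 0.55) and miR-135b-5p (log2 0.84) were not called. Untreated library 2 was the lowest of all 6 libraries for each of them. Without untreated library 1, miR-135b-5p (adjusted p = 0.00659) and miR-375-3p (adjusted p = 0.0294) were called higher. The member that fell was miR-31-5p, at 205, 407 and 224 CPM in allergic fluid, against 763, 1006 and 632 CPM in untreated fluid (log2 -1.52, SE 0.32, edgeR adjusted p = 0.0107). It was just short of the threshold without allergic library 1 (adjusted p = 0.0503).

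Multiciliated cells, which move mucus along the airway, make the miR-34 and miR-449 family. All 4 miRNAs of the Mir449a and Mir449c hairpins, which lie in an intron of Cdc20b (chr13:113035983-113037624), rose. miR-449c-5p was at 1889, 2021 and 2530.1 CPM in allergic fluid, against 363, 199.8 and 555 CPM in untreated fluid (log2 2.53, SE 0.37, edgeR adjusted p = 0.00211). miR-449a-5p was at 12206, 11080.2 and 14050.2 CPM in allergic fluid, against 4028, 3097 and 6823 CPM in untreated fluid (log2 1.42, SE 0.30, edgeR adjusted p = 0.0103). For both, allergic library 3 was highest in its group, and so was untreated library 3 in its own. The rarer strands rose as well, miR-449a-3p by 11.7-fold (66.2, 178 and 178 CPM in allergic fluid, against 7.41, 14.3 and 12.2 CPM in untreated fluid; edgeR adjusted p = 0.00219) and miR-449c-3p by 3.52-fold (edgeR adjusted p = 0.0179, and 0.0772 without allergic library 1).

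The Mir34b and Mir34c hairpins on chromosome 9, which belong to the same family and cell type, were not called. miR-34b-5p was at 17590.2, 12027 and 22260.0 CPM in allergic fluid, against 11110, 5205 and 10704 CPM in untreated fluid (log2 0.94, SE 0.33, edgeR adjusted p = 0.0645). The level of miR-34c-5p was 36444, 30724 and 39288 CPM in allergic fluid, against 26281, 15701 and 28409 CPM in untreated fluid (log2 0.60, SE 0.23, edgeR adjusted p = 0.0831). In both the allergic libraries were all above the untreated ones, by less than for the Mir449 hairpins. Of the 6 tested members of the multiciliated list 2 rose and 0 fell, with a median of 0.82. In the fit with the replicate number as a block, and without untreated library 1, 4 of the 6 rose. miR-34a-5p, which has the same seed but is made in many cell types under p53, was at 724 to 1173 CPM in allergic fluid, against 1018 to 1064 CPM in untreated fluid (log2 -0.23).

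The seed AGCAGCA was carried by 6 tested miRNAs, of which 3 rose and 3 fell. The 6 come from 4 genomic neighbourhoods, and those from hairpins side by side were called in the same direction. They were grouped by their shared seed, so the seed could not divide them. miR-15b-5p, from an intron of Smc4, a condensin subunit gene (chr3:69009772-69009835), was at 4404, 6715 and 2920.2 CPM in allergic fluid, against 1282, 1722 and 1738 CPM in untreated fluid (log2 1.57, SE 0.32, edgeR adjusted p = 0.00955). miR-15a-5p was at 19449, 22010.1 and 16620.4 CPM in allergic fluid, against 10913, 8350.0 and 10699.9 CPM in untreated fluid (log2 0.95, SE 0.18, edgeR adjusted p = 0.00695). miR-16-5p, which is made from hairpins beside both of these and abounds in blood cells, was at 45485, 56281 and 37595 CPM in allergic fluid, against 32084, 27043 and 31853 CPM in untreated fluid (log2 0.62, SE 0.18, edgeR adjusted p = 0.033). The groups of all 3 were apart. The call of miR-16-5p was lost without allergic library 1 (adjusted p = 0.105), allergic library 2 (0.154) or untreated library 3 (0.0581), and with total count scaling (0.131).

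The 3 that fell are from chromosomes 11 and X. miR-195a-5p was at 235, 312 and 522 CPM in allergic fluid, against 652, 3445 and 1714 CPM in untreated fluid (log2 -2.44, SE 0.62, edgeR adjusted p = 0.0251). miR-497a-5p, from the hairpin next to it (the pair spans chr11:70234717-70235135), was at 120.3, 206 and 207 CPM in allergic fluid, against 289, 1844 and 839 CPM in untreated fluid (log2 -2.48, SE 0.66, edgeR adjusted p = 0.0283). The pair is known from muscle and other resting cells, and untreated library 2 was far above untreated library 1 for both. Both calls were lost without allergic library 1, allergic library 2 or untreated library 3 (adjusted p up to 0.0772 and 0.086), that of miR-497a-5p also without allergic library 3 (0.0618), and with no filter on low counts (0.14 and 0.157). miR-322-5p, of the X cluster, was at 872, 947 and 631 CPM in allergic fluid, against 1449, 3547 and 2658 CPM in untreated fluid (log2 -1.64, SE 0.34, edgeR adjusted p = 0.0105).

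Summed over the 6 miRNAs, the seed was at 70565, 86470.1 and 58496 CPM in allergic fluid, against 46669.7, 45951 and 49501 CPM in untreated fluid. The 3 that fell made up 1.74%, 1.69% and 2.32% of that sum in allergic fluid, against 5.12%, 19.2% and 10.5% in untreated fluid. Of the 211 tested miRNAs with 1 mature sequence, 88 shared a seed with another, over 30 seeds, and 18 of those seeds had a call. This was the only one of the 30 with calls in both directions, a count chosen after the values were seen. Only 5 of the 30 had 2 or more calls, so the others could not have calls in both directions.

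**Figure D3:**
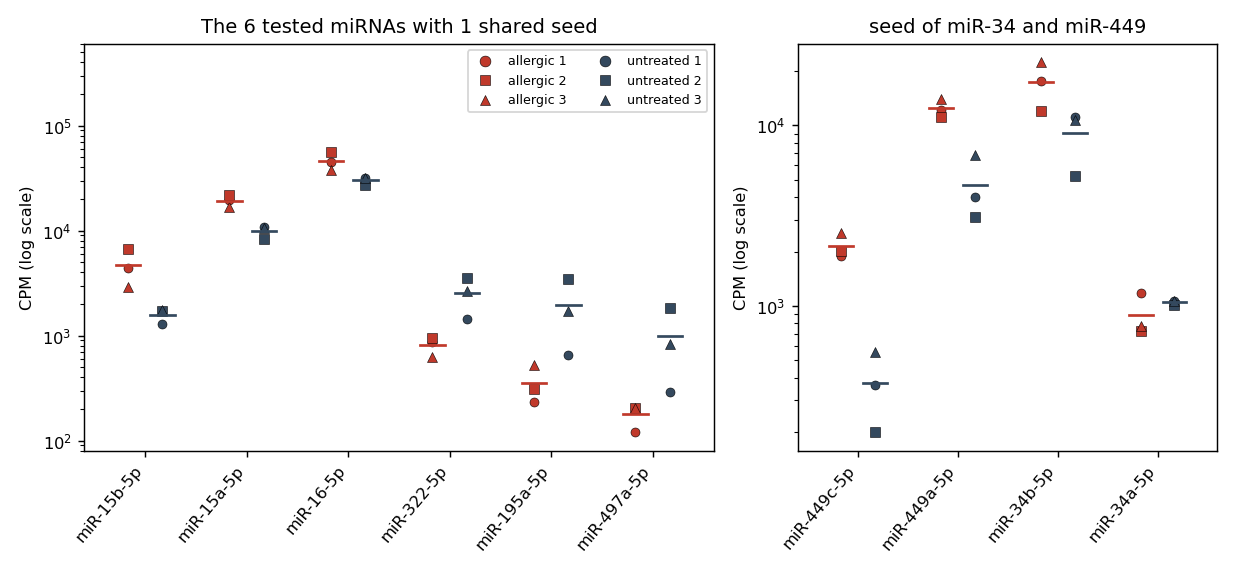
Level in each lavage fluid library (CPM, log axis) of the 6 tested miRNAs of seed AGCAGCA (left) and 4 of seed GGCAGUG (right). Allergic libraries are in red to the left of untreated ones in dark symbols, with group means as bars. miR-34c-5p, of the family shown on the right, had no sequence in the source used and is left out. On the left the first 3 are higher and the last 3 lower in allergic fluid, and on the right miR-449c-5p and miR-449a-5p are apart between the groups while miR-34a-5p overlaps.

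The X cluster of miR-322, miR-503, miR-351, miR-542 and miR-450 had the lowest median change of the lists. These miRNAs are known from fetal and differentiating tissues, where miR-322 and miR-503 (miR-424 and miR-503 in humans) slow the cell cycle. All 9 tested members fell, with a median log2 fold change of -3.53. The hairpins Mir322, Mir503, Mir542 and Mir450b lie within chrX:53047997-53054349, outside any annotated gene. miR-322-3p was at 66.2, 50.1 and 22.9 CPM in allergic fluid, against 530, 1147 and 912 CPM in untreated fluid (log2 -4.21, SE 0.44, edgeR adjusted p = 0.000634). miR-351-5p was at 66.2, 39 and 63.1 CPM in allergic fluid, against 411, 1028 and 993 CPM in untreated fluid (log2 -3.85, SE 0.44, edgeR adjusted p = 0.000778). The highest allergic library of each was under the lowest untreated library by more than 5-fold.

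miR-450a-5p was at 66.2, 83.5 and 74.6 CPM in allergic fluid, against 441, 1175 and 693 CPM in untreated fluid (log2 -3.36, SE 0.41, edgeR adjusted p = 0.00105). miR-542-3p was at 24.1, 33.4 and 34.4 CPM in allergic fluid, against 159, 571 and 344 CPM in untreated fluid (log2 -3.53, SE 0.54, edgeR adjusted p = 0.00253). miR-503-5p was at 30.1, 61.2 and 17.2 CPM in allergic fluid, against 167, 285 and 308 CPM in untreated fluid (log2 -2.78, SE 0.46, edgeR adjusted p = 0.00361). Untreated library 1 was the lowest of its group for all 3, and was still above every allergic library. Of the rarest members, miR-542-5p had 0 counts in all 3 allergic libraries and 104 in the untreated ones. With 3 counts taken for the allergic group, its share of the group's total counts, without TMM scaling, was at least 22.9-fold lower. miR-503-3p was at 0, 16.7 and 0 CPM in allergic fluid, against 51.9, 197 and 134 CPM in untreated fluid. miR-450b-3p (log2 -2.96) was not called without allergic library 1 or 2 (adjusted p up to 0.0599). The strand that fell least, miR-322-5p at log2 -1.64, is the most abundant of the cluster, while its partner miR-322-3p fell by 4.21 on the log2 scale. Together the cluster took 0.108%, 0.113% and 0.0825% of the counts in allergic fluid, against 0.366%, 0.909% and 0.687% in untreated fluid.

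**Figure D4:**
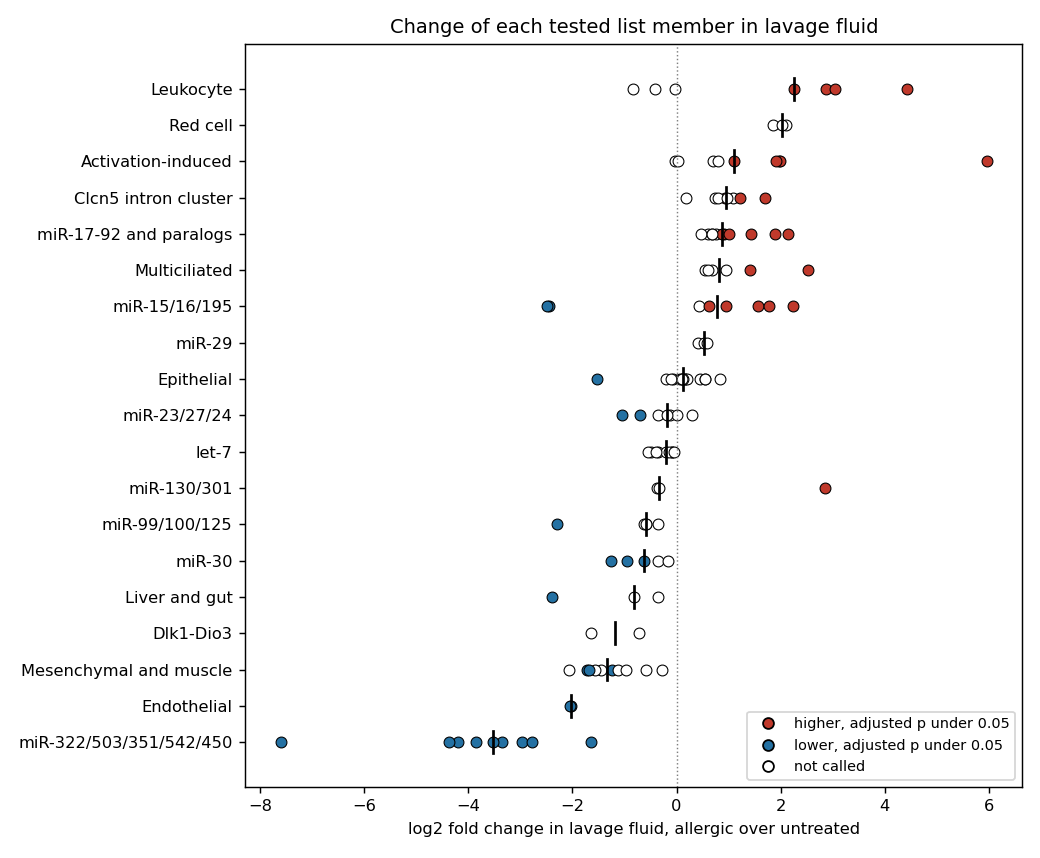
log2 fold change in lavage fluid, allergic over untreated, of each tested member of the lists, with the median of a list as a vertical bar. Red and blue points were called higher or lower at an adjusted p under 0.05 and white ones were not; the leukocyte, activation, miR-17-92 and multiciliated lists have calls to the right alone, and all 9 of the X cluster lie to the left.

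The miR-17-92 cluster and its paralogs are driven by MYC and E2F in dividing cells and are abundant in blood cells. Of 11 tested members 6 rose and 0 fell, with a median log2 fold change of 0.88. All 11 had every allergic library above every untreated one, against 28.3% of all entries tested. Neighbours in a cluster mostly share a primary transcript, so these are not independent observations. miR-92a-3p was at 6395, 5429 and 4464 CPM in allergic fluid, against 1416, 1532 and 1430.2 CPM in untreated fluid (log2 1.89, SE 0.20, edgeR adjusted p = 0.000634). miR-25-3p, of the paralog cluster within Mcm7 (chr5:138165321-138165818), was at 4879, 5885 and 2656 CPM in allergic fluid, against 893, 1189 and 968 CPM in untreated fluid (log2 2.14, SE 0.32, edgeR adjusted p = 0.00219). The 3 other tested miRNAs of that cluster, miR-106b-3p (log2 0.75), miR-93-5p (log2 0.67) and miR-106b-5p (log2 0.60), were not called (edgeR adjusted p = 0.0615, 0.0594 and 0.0594), so the hairpins next to one another differed in size of change. miR-20a-5p (log2 1.01), miR-17-5p (log2 0.91), miR-18a-5p (log2 1.42) and miR-19a-3p (log2 0.88) rose. miR-18a-5p lost the call without allergic library 2 (adjusted p = 0.0604), and miR-19a-3p without allergic library 1 or 2 or untreated library 3 (adjusted p up to 0.0644). Without allergic library 2, 4 of the 11 rose. miR-92b-3p, with the seed of miR-92a-3p, rose by 0.92 on the log2 scale, a call lost without allergic library 1 or 2 (adjusted p up to 0.0906), and miR-32-5p of the same seed was not called (log2 -0.23).

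Red cell miRNAs were high in 1 library. miR-451a, which is made without Dicer in erythroid cells and is the main miRNA of red blood cells, was at 14420, 94906 and 12203 CPM in allergic fluid, against 3280, 15477 and 14654 CPM in untreated fluid. Allergic library 2 stood apart from all others and untreated library 1 was the lowest. The log2 fold change was 1.86 (SE 1.00, edgeR adjusted p = 0.199), and 0.30 without allergic library 2. miR-144-3p, from the same transcript (log2 2.11), and miR-486a/b-5p (log2 2.03) followed it, and 0 of the 3 tested members were called, while DESeq2 called the last 2. The erythroid list took 1.53%, 9.39% and 1.32% of the counts in allergic fluid, against 0.398%, 1.88% and 1.78% in untreated fluid. With its entries removed before scaling, a choice made after seeing the data, 80 entries were called, among them all 73. Without allergic library 2, miR-92a-3p (log2 1.92), miR-25-3p (log2 1.92) and miR-15b-5p (log2 1.24), which red cells also hold, were still called higher (adjusted p = 0.00315, 0.00626 and 0.0229). Among the other risen miRNAs of their lists, miR-15a-5p, miR-15b-3p, miR-17-5p and miR-20a-5p kept the call. Those of miR-16-5p, miR-16-2-3p, miR-18a-5p and miR-19a-3p were lost (edgeR adjusted p = 0.154, 0.0588, 0.0604 and 0.0588).

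Of the endothelial list both tested members fell, and of the mesenchymal and muscle list 3 of 10. Both strands of miR-126a, the miRNA of vascular endothelium, fell. miR-126a-3p was at 505, 646 and 1067 CPM in allergic fluid, against 1227, 4822 and 3018 CPM in untreated fluid (log2 -2.03, SE 0.50, edgeR adjusted p = 0.0193). miR-126a-5p fell alike (log2 -2.04, SE 0.47, edgeR adjusted p = 0.0163). The highest allergic and the lowest untreated library were close for the 3p strand, and both calls were lost without allergic library 1 or 2 (adjusted p up to 0.0811 and 0.0663), that of the 3p strand also without untreated library 3.

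Of 10 tested mesenchymal and muscle miRNAs 3 fell and 0 rose, with a median log2 fold change of -1.34. miR-143-3p of smooth muscle was at 2057, 5011 and 3632 CPM in allergic fluid, against 8316, 11157 and 5834 CPM in untreated fluid (log2 -1.24, SE 0.36, edgeR adjusted p = 0.033). miR-214-3p of fibroblasts was at 102, 156 and 229.5 CPM in allergic fluid, against 252, 842 and 466 CPM in untreated fluid (log2 -1.68, SE 0.48, edgeR adjusted p = 0.0321). The groups of both were apart, with untreated library 2 highest. The call of miR-143-3p was lost without allergic library 1 or 3 or untreated library 2 (adjusted p up to 0.0965), and that of miR-214-3p without allergic library 1 or 2 or untreated library 2 or 3 (up to 0.105). The third was the rare strand miR-143-5p, with 12 counts over the allergic and 78 over the untreated libraries (log2 -1.73, SE 0.55, edgeR adjusted p = 0.0467). Its call was lost without any of the libraries but untreated library 1 (adjusted p up to 0.148). miR-145a-5p (log2 -1.12), miR-199a/b-3p (log2 -1.57) and miR-199b-5p (log2 -2.06) were not called, and miR-1a-3p and miR-133a-3p of striated muscle were spread within both groups. Without untreated library 2, and without allergic library 1, 0 of the 10 were called, while DESeq2 called 6. The list took 0.525%, 1.05% and 1.00% of the counts in allergic fluid, against 1.97%, 3.67% and 1.71% in untreated fluid.

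Other named miRNAs fell singly. miR-193a-3p was at 235, 223 and 207 CPM in allergic fluid, against 678, 1577 and 1118 CPM in untreated fluid (log2 -2.35, SE 0.32, edgeR adjusted p = 0.00174), and was called whichever library was left out. miR-100-5p was at 90.2, 111 and 184 CPM in allergic fluid, against 274, 1092 and 527 CPM in untreated fluid (log2 -2.30, SE 0.53, edgeR adjusted p = 0.0162), and lost the call without allergic library 1 or 2 (adjusted p up to 0.0659). Its relatives of the same seed, miR-99a-5p (log2 -0.35) and miR-99b-5p (log2 -0.60), were not called, and neither were miR-125a-5p (log2 -0.59) and miR-125b-5p (log2 -0.62). The liver miRNA miR-122-5p was at 60.2, 16.7 and 5.74 CPM in allergic fluid, against 55.6, 197 and 178 CPM in untreated fluid (log2 -2.40, SE 0.74, edgeR adjusted p = 0.0408). Its groups overlapped, and it was not called without allergic library 2 or 3, or untreated library 2 or 3 (adjusted p up to 0.139). Of the liver and gut list 1 of 3 tested fell and 0 rose, and miR-192-5p (log2 -0.81) and miR-194-5p (log2 -0.35) were not called. With total count scaling all 3 were called lower.

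The miR-30 family, abundant in epithelium and other resting tissue, fell in 3 of 5 tested members and rose in 0, with a median log2 fold change of -0.63. miR-30b-5p was at 13860.4, 16036 and 16293 CPM in allergic fluid, against 29372, 47324 and 33433 CPM in untreated fluid (log2 -1.25, SE 0.20, edgeR adjusted p = 0.00351). miR-30d-5p fell by 0.94 and miR-30c-5p by 0.63 on the log2 scale, and miR-30a-5p (log2 -0.35) and miR-30e-5p (log2 -0.17) were not called. miR-30c-5p lost the call without allergic library 1 or 2 or untreated library 3 (adjusted p up to 0.0902). The family took 6.42%, 6.08% and 7.21% of the counts in allergic fluid, against 11.2%, 15.3% and 13% in untreated fluid. The 5 most abundant entries of allergic fluid were miR-21a-5p, miR-16-5p, miR-29a-3p, miR-451a and miR-34c-5p, against miR-21a-5p, miR-26a-5p, miR-30b-5p, miR-200a-3p and miR-29a-3p in untreated fluid.

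The let-7 family, the abundant miRNAs of differentiated cells, had 0 calls among 9 tested, with log2 fold changes of -0.55 to -0.05 and a median of -0.20. The number of calls depends on the scaling: with total counts 3 of the 9 were called lower, and with median-ratio size factors or DESeq2 2 were. The miR-29 family had 0 calls among 3 (log2 0.41 to 0.58) and all 3 were called higher without untreated library 1. Of the miR-23/27/24 clusters, known to restrain Th2 cells, 0 of 7 tested rose and 2 fell. Both are passenger strands of miR-24, miR-24-2-5p (log2 -0.70, mean 1049 CPM) and miR-24-1-5p (log2 -1.05, mean 127 CPM). The guide strands miR-23a-3p, miR-27a-3p and miR-24-3p were at log2 0.29, 0.00 and -0.35 and were not called. miR-24-2-5p and miR-24-1-5p lost their calls on leaving out any library but untreated library 1 (adjusted p up to 0.0873 and 0.132). In the Clcn5 intron cluster 3 of 8 tested rose and 0 fell, with a median of 0.95: miR-188-5p (log2 1.69, SE 0.35, edgeR adjusted p = 0.00955), miR-532-5p (log2 1.22) and miR-500-3p (log2 0.92, not called without allergic library 1 or 2, adjusted p up to 0.0902). The Dlk1-Dio3 cluster had 2 members tested and 0 called, and the Sfmbt2 cluster had 0 tested.

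Further high risers lie outside the lists described above or are their rarer strands. miR-130b-3p, 1 of 3 tested in the miR-130 and miR-301 list and the only one called, was at 271, 289 and 103 CPM in allergic fluid, against 14.8, 40.4 and 32.4 CPM in untreated fluid (log2 2.86, SE 0.50, edgeR adjusted p = 0.00482), while the more abundant miR-130a-3p (log2 -0.38) and miR-301a-3p (log2 -0.33) with its seed were not called. miR-338-3p, from an intron of Aatk (chr11:120014765-120014862) and best known from neurons and oligodendrocytes, was at 247, 407 and 132 CPM in allergic fluid, against 40.8, 40.4 and 28.4 CPM in untreated fluid (log2 2.81, SE 0.45, edgeR adjusted p = 0.00334). miR-340-5p, from an intron of Rnf130, was at 1648, 2066 and 861 CPM in allergic fluid, against 289, 240.3 and 279.6 CPM in untreated fluid (log2 2.50, SE 0.33, edgeR adjusted p = 0.00137). In all 3 allergic library 3 was the lowest of its group and still above every untreated library. miR-139-5p, from an intron of Pde2a, rose 5.55-fold (log2 2.47, SE 0.46, edgeR adjusted p = 0.00651). miR-135a-5p rose 4.8-fold (edgeR adjusted p = 0.0253), and lost the call without allergic library 1 or 2 or untreated library 2 or 3 (adjusted p up to 0.0902). miR-15b-3p and miR-16-2-3p, the rarer strands of the Smc4 hairpins, rose by 2.25 and 1.77 on the log2 scale, the second not called without allergic library 1 or 2 (adjusted p up to 0.0674).

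Strands of one hairpin tended to move together. Of 39 hairpins with both strands tested, 35 had log2 fold changes of the same sign, and in the 8 with both called the direction was the same. Of 20 groups of hairpins that lie within 10 kb of one another, 0 had calls in both directions. Most of these groups had no call or 1, and so could not have calls in both directions. The strands share their primary transcript, as do most such neighbours, so these are not independent observations. Among entries too rare to test, miR-592-5p had 12, 16 and 7 counts in allergic fluid and 0 in untreated fluid, an at least 17.7-fold higher level. miR-202-5p had 0 counts in allergic fluid, and 1, 31 and 2 counts in untreated fluid, nearly all in untreated library 2. Both were chosen after their values were seen, because 1 group had no count.

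The allergic change in fluid was set against that in the lavage cells of the same library set, 3 allergic and 3 untreated cell pellets. The difference between the changes was called for 71 of 273 entries (26%), with 44 more positive in fluid and 27 more negative. In the cells themselves 56 of the 273 were called higher (20.5%) and 63 lower (23.1%) in allergic mice. Multiciliated miRNAs set fluid apart from cells, in all 6 tested members. miR-34c-5p was at 1071, 1061 and 1039 CPM in allergic cells, against 2327, 9613 and 8256 CPM in untreated cells (scaled over the 12 libraries), a fall of the kind that the fluid did not have. The difference was 3.29 on the log2 scale (SE 0.56, edgeR adjusted p = 0.00195), with a change of -2.67 in cells and 0.61 in fluid. For miR-34b-5p it was 3.46, for miR-449a-5p 3.37, for miR-449c-3p 3.27 (SE 0.96, edgeR adjusted p = 0.0219), for miR-34b-3p 3.14 and for miR-34c-3p 3.06. miR-153-3p, a miRNA of neuroendocrine cells, differed by 3.26 (-3.32 in cells, at 0 to 3.48 CPM in allergic cells), and its fluid level did not pass the test.

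miR-149-5p differed the other way. In cells it was at 598, 608 and 691 CPM when allergic, against 32.3, 18.9 and 8.75 CPM when untreated. In fluid, on the same scale, it was at 50.4, 62.7 and 28.9 CPM when allergic, against 63.7, 37.5 and 23.9 CPM when untreated. The cells were apart by a log2 fold change of 5.09 and the fluid was not (0.18), a difference of -4.91 (SE 0.68, edgeR adjusted p = 0.000678). All 3 untreated cell values were under the worth of 3 counts (69.6, 20.6 and 18.9 CPM). The change in cells and the difference therefore rest on few untreated reads. Untreated cell library 1 held 43087 counts in all. Of the X cluster 7 of 9 tested changed more negatively in fluid than in cells, where the median change was -1.16. In the cells 3 of these 9 were called lower, against 23.1% of all entries. Of the 8 leukocyte miRNAs tested here 5 were called higher in cells as well, against 20.5% of all entries. The strands of miR-223 alone differed between fluid and cells, both more positive in fluid, with miR-223-3p at 4.46 in fluid and 2.80 in cells (difference 1.66, SE 0.57, edgeR adjusted p = 0.0437).

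Against serum of the same library set the difference was called for 31 of 302 entries (10.3%), with 22 more positive in fluid and 9 more negative. In serum itself 15 of the 302 were called higher (4.97%) and 24 lower (7.95%) in allergic mice. The X cluster had 10 members tested here, of which 5 were called lower in serum (median change -1.67) and 2 were more negative in fluid. Of 9 leukocyte miRNAs tested, 6 were more positive in fluid and 1 more negative, while of 10 activation miRNAs 1 was more positive, miR-147-3p, a share like that of all entries. The serum change was called higher for 1 and lower for 2 of the 9 leukocyte miRNAs, and higher for 3 of the 10 activation miRNAs. miR-223-3p was at 6088, 10888.7 and 10030.8 CPM in allergic serum, against 3845, 4956 and 7496 CPM in untreated serum (scaled over the 12 libraries). Its change was 0.73 in serum and 4.46 in fluid, a difference of 3.73 (SE 0.59, edgeR adjusted p = 0.00146). miR-142a-5p differed by 3.18 (-0.09 in serum), miR-147-3p by 4.80 (1.28 in serum), miR-130b-3p by 3.50 (-0.55) and miR-338-3p by 3.26 (-0.38). The serum changes of these 5 were not called, and the difference of miR-338-3p was lost without allergic fluid library 2 or untreated fluid library 3 (adjusted p up to 0.0651). miR-672-5p differed by 3.88, and miR-455-5p by 3.71 and miR-455-3p by 3.69, through falls in serum and not through fluid. miR-672-5p was at 0.961 to 2.17 CPM in allergic serum, near the worth of 3 counts (1.4 to 2.51 CPM), against 13.3 to 33.2 CPM in untreated serum. With total count scaling 13 of the differences with serum were called, and those of miR-147-3p, miR-338-3p and both miR-455 strands were not.

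**Figure D5:**
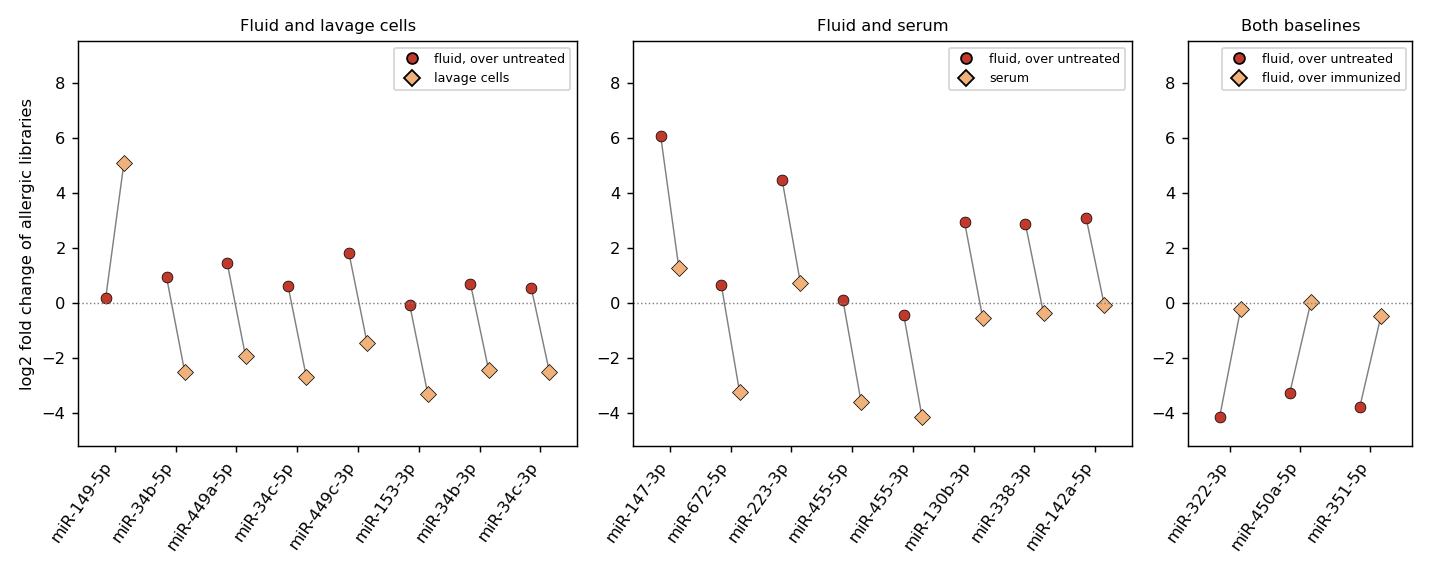
log2 fold change of allergic libraries for the miRNAs named in the 3 tests of a difference: fluid over untreated (red circles) beside lavage cells (left) or serum (middle) over untreated, and beside fluid over immunized (right), as orange diamonds. Multiciliated miRNAs lie above 0 in fluid and below 0 in cells, and the 3 X cluster miRNAs lie near -4 over untreated and near 0 over immunized.

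A different baseline was available in mice that were immunized by the same injections and then aspirated PBS alone. The change of allergic fluid over untreated fluid was set against that of 4 other allergic fluid libraries over 4 immunized ones, which are of library sets 3 and 4 and share no library with it. The difference was called for 3 of 294 entries (1.02%) and for 52 at an unadjusted p under 0.05. All 3 are of the X cluster. miR-322-3p was at 149, 130, 169 and 348 CPM in allergic fluid of these sets, against 329, 75, 172 and 308 CPM in immunized fluid (scaled over all 14 fluid libraries), which overlap. Its change was -4.13 over untreated and -0.21 over immunized fluid, a difference of -3.92 (SE 0.71, edgeR adjusted p = 0.0253). For miR-450a-5p the difference was -3.28 (0.02 over immunized; edgeR adjusted p = 0.0491) and for miR-351-5p -3.28 (-0.48 over immunized; edgeR adjusted p = 0.0357). On the scale of the 14 libraries miR-322-3p was at 62.8, 49.7 and 23 CPM in set 2 allergic fluid. In untreated fluid it was at 516, 1013 and 855 CPM. The allergic and the immunized libraries of sets 3 and 4 all lay between these groups. Every allergic fluid library of sets 3 and 4 was thus above every one of set 2. Immunization and library set cannot be told apart here, and without any 1 of 7 of the 14 libraries 0 differences were called. For the leukocyte list the median change was 2.64 over untreated and 1.28 over immunized fluid, and 0 of 8 tested members differed by the test.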

How the data were processed

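Small RNA libraries were read as the submitters' tables. The deposited expected counts per miRNA (exceRpt output, per the file headers, not whole where reads were shared) come from reads trimmed with cutadapt and set on mm10, per the submitters' processing notes, which also name DESeq2; versions and other steps are not given in the sources used here. Values in RPM, deposited by the authors as a further table, served in an alternative alone. Expected counts were rounded (4.29% of values were not whole; totals moved by at most 0.0029%), with 0 columns left unmatched.

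The comparison used edgeR 4.0.16 in R 4.3.3: a minimum count of 10 in filterByExpr, TMM scaling, the robust quasi-likelihood test on the 6 libraries, and Benjamini-Hochberg adjustment over 247 entries, called at an adjusted p under 0.05. The standard error of a log2 fold change was taken from its F statistic. Differences between comparisons were tested as interaction terms. The script was tested on simulated data. limma 3.58.1 and DESeq2 1.42.0 were alternatives, as were other scalings, filters and leaving out each library.

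Replicate libraries differed by more than sampling noise and were kept as separate samples. Allergic and untreated libraries of one number were not treated as pairs. Deviations of fluid and cells of one number had correlations of 0.127 to 0.357, each over 0.1. Fluid and cells of unlike number were not compared, so this does not show that they pair. The labels do not say that libraries of one number share a mouse. With the number within each group as a block 78 differences with cells were called, against 71 without it. Depths were 179354 to 388924 counts, so that 3 counts are worth 7.71 to 16.7 CPM, counting error only.

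Genes named are the 15 highest and 15 lowest called log2 fold changes with a mean of at least 50 CPM, members of 21 lists, the 5 most abundant entries of each group and the 8 largest called differences. The members, lists and rule were chosen with earlier results of these data known. Mature sequences and positions are from RefSeq and GENCODE tables of GRCm38, the assembly of mm10. Hairpin entries (83 of 1211) hold 0.0138% of the counts.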

Additional observations from a re-analysis of the deposited data

Results flagged for a closer look

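Results stand here because the allergic change in fluid differed from the allergic change in another comparison by edgeR's test of the difference (log2 scale, fluid change minus the other). Against lavage cells the difference was -4.91 for miR-149-5p, 3.46 for miR-34b-5p, 3.37 for miR-449a-5p, 3.29 for miR-34c-5p, 3.27 for miR-449c-3p, 3.26 for miR-153-3p, 3.14 for miR-34b-3p and 3.06 for miR-34c-3p. Of these 8, 6 are of the miR-34 and miR-449 hairpins of multiciliated cells, which in the lavage cells fell or were not called and in the fluid rose or were not called.

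Against serum the difference was 4.8 for miR-147-3p, 3.88 for miR-672-5p, 3.73 for miR-223-3p, 3.71 for miR-455-5p, 3.69 for miR-455-3p, 3.5 for miR-130b-3p, 3.26 for miR-338-3p and 3.18 for miR-142a-5p. For miR-672-5p and both miR-455 strands it was the serum change that was called, and for the other 5 the fluid change.

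With the fluid change over untreated mice set against that of other allergic fluid over immunized mice, the difference was -3.92 for miR-322-3p, -3.28 for miR-450a-5p and -3.28 for miR-351-5p.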

How the results depend on the processing

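Of the 73 calls, 37 (25 of 41 higher, 12 of 32 lower) held when any 1 library was left out, and no call changed direction under any alternative run. Leaving out single libraries gave 41 to 101 calls, 26 to 55 higher and 15 to 46 lower. The lowest of each was without allergic library 1 and the highest without untreated library 1; without allergic library 2 there were 43 calls and without untreated library 3 there were 20 lower. Total count scaling gave 60 lower and 33 higher. On the log2 of the deposited RPM limma gave 57 lower and 33 higher, both with nothing added to the RPM and with 10 added. The TMM factors, which total count scaling leaves out, were 0.872 to 0.949 in allergic and 1.09 to 1.10 in untreated libraries. The cause of the difference in calls was not tested. With the replicate number as a block there were 75 calls, 42 higher and 33 lower, 69 of them shared. Same-numbered allergic and untreated libraries had correlations of deviations of 0.213, 0.227 and 0.00346, against -0.29 to 0.078 for those of unlike number. Allergic library 3 correlated best with untreated library 2, and the libraries were not treated as pairs. With no filter on low counts 91 of 755 were called, with a minimum of 50 counts 60 of 160, and with DESeq2 83. The differences with serum numbered 13 under total count scaling and 18 to 41 when a library was left out, and those with cells 55 to 80. Differences between the baselines numbered 24 with no filter and 0 to 15 on leaving out a library. Groups of 3 libraries, 179354 to 388924 counts deep, limit what can be called, with a median SE of 0.28 on the log2 scale.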

Other observations

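An entry chosen after its values were seen, let-7j, had 68, 97 and 85 counts in the allergic and 134, 1 and 0 counts in the untreated fluid libraries. Over all 48 libraries it was at 4 counts or fewer in 14 and at 40 or more in 34, with 0 libraries between.

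In the lavage cells, beside the fluid values above, 11 of 15 tested epithelial miRNAs and 5 of 6 macrophage-linked ones were called lower in allergic mice, and 5 of 5 of the miR-99, miR-100 and miR-125 miRNAs as well, against 63 of all 273 entries (23.1%). The test of the difference from fluid was called for 8 of the 15, 1 of the 6 and 4 of the 5, all more positive in fluid. In serum 3 of 3 tested miR-29 miRNAs were called higher in allergic mice, with a median log2 fold change of 1.45, against 15 of all 302 entries (4.97%), and 0 of 3 differed from fluid by the test.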
